A study of Homo sapiens with 8 samples.

Results

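The response of PPA2-knockdown cells to low oxygen was described by setting their hypoxia libraries against their normoxia libraries. The libraries were chosen by their labels, and they are 4 of the 8 in the series. All come from DLD1, an established human colorectal cancer cell line, and poly(A) RNA was sequenced. The cells with a short hairpin RNA against PPA2 (shPP, genotype label PPA2 knockdown) were kept for 12 h in hypoxia (LO, 2 libraries) or in normoxia (HO, 2 libraries). Cells with a control hairpin (shNT, genotype label WT), kept for 12 h in hypoxia (2 libraries) or normoxia (2 libraries), serve for comparison. The labels name 1 hairpin against PPA2 and no rescue, and do not say whether the 2 libraries of a group came from separate cultures, so spreads and p-values here cover the difference between libraries, which may be technical.

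Cells sense oxygen mainly through the hypoxia-inducible factors (HIFs). In air, the prolyl hydroxylases EGLN1, EGLN2 and EGLN3 mark HIF alpha subunits for the VHL ubiquitin ligase; in low oxygen the alpha subunits persist, pair with ARNT and bind promoters and enhancers with the core letters ACGTG or GCGTG. Their classical targets serve glucose uptake and glycolysis, angiogenesis, collagen modification, mitophagy and the feedback hydroxylases themselves. PPA2 encodes the mitochondrial inorganic pyrophosphatase, which splits the pyrophosphate that biosynthesis releases into phosphate, and PPA1 encodes its cytosolic relative.

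The RefSeq promoter windows (GRCh38.p14, 250 bases before to 50 after the start) of 4 HIF targets with large shifts are printed to show the letters a HIF dimer recognises, with ACGTG in capitals on either strand (CACGT is its reverse).
DDIT4: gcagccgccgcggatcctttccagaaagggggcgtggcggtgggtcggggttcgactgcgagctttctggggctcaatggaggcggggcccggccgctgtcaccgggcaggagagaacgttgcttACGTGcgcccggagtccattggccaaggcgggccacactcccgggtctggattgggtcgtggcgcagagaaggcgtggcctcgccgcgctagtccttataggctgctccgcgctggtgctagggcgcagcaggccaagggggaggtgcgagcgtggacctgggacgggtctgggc
ANGPTL4: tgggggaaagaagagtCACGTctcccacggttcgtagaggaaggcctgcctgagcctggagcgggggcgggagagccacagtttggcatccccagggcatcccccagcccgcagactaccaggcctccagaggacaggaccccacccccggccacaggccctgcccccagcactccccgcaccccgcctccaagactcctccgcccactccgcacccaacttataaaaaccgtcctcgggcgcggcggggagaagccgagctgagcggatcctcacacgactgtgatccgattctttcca
EGLN1: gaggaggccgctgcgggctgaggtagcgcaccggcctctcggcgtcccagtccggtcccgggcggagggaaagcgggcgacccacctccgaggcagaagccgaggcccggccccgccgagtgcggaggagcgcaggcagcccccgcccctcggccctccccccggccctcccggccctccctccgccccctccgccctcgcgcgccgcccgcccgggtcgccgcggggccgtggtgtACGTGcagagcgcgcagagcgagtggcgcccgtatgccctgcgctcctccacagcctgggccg
ANKRD37: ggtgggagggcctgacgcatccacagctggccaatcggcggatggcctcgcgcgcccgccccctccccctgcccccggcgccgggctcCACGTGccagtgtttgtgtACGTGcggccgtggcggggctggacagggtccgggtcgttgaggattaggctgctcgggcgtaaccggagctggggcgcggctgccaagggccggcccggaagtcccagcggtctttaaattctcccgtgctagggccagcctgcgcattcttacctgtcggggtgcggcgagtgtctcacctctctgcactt
They lie at chr10:72273674-72273973 (plus strand), chr19:8363905-8364204 (plus strand), chr1:231422238-231422537 (minus strand) and chr4:185396591-185396890 (plus strand), in the order printed. The windows of DDIT4, ANGPTL4 and EGLN1 hold 1 match each, and that of ANKRD37 holds 3, of which a pair overlaps in the palindrome CACGTG. Windows could be matched for 24 of the 37 measured HIF targets outside glycolysis, and 17 of those 24 (70.8%) hold ACGTG, against 28.3% of the 6816 tested genes with a window and 21.3% of all 22114 windows. GCGTG was in 12 of the 24 (50%), against 53.1% of the tested genes with a window and 35.4% of all windows. Of all genes called higher and lower in hypoxic knockdown cells, 31.2% and 32.0% of those with a window hold ACGTG. The share is not particular to HIF targets: ribosome biogenesis and MYC targets, the list with the lowest median shift, hold ACGTG in 13 of 16 windows (81.2%), and splicing factors in 10 of 14 (71.4%). A match describes these letters and does not locate a binding site.

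The hypoxia and normoxia values were deposited in separate tables, the first in FPKM and the second in RPKM (reads or fragments scaled to transcript length and library size). Oxygen level and table therefore cannot be told apart, and no test was made between them. Each library's log2(value + 1) was centred on its median over 13585 tested genes (mean of at least 1 over all 8 libraries), and the mean of the hypoxia libraries minus that of the normoxia libraries is called the shift. A gene is called higher or lower where its shift is at least 2-fold and both hypoxia libraries lie on the same side of both normoxia libraries. Only the difference between the shift in knockdown cells and that in control cells (the interaction of oxygen and knockdown) was tested, with limma over all 8 libraries and Benjamini-Hochberg adjustment over all tested genes, since an effect of the table that is common to both kinds of cell drops out of it. The libraries hold an estimated 28000000 to 45400000 reads or fragments. The replicates of each knockdown group correlated at 0.995 across genes. Of 10 markers of colon epithelium, 8 were at 21.96 or more in every library, VIL1 was at 0.55 to 1.35 in knockdown cells and 3.24 to 4.51 in control cells, and LGALS4 was at 1.29 or less throughout. Their sum was 3760 to 3770 FPKM in knockdown hypoxia, 3510 to 3600 RPKM in knockdown normoxia, 3260 to 3600 FPKM in control hypoxia and 3950 to 4090 RPKM in control normoxia. Markers of leucocytes, fibroblasts and endothelium summed to at most 1.45, 1.35 and 0.285 in any library.

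PPA2 itself (ENSG00000138777, GRCh38 chromosome 4, 105369077 to 105474067, minus strand) checked the labels. It had 9.85 and 9.0 FPKM in knockdown hypoxia, against 5.88 and 5.74 RPKM in knockdown normoxia. Control cells had 65.5 and 50.8 FPKM in hypoxia, against 79.8 and 84.1 RPKM in normoxia, so every knockdown library lay far below every control library. The knockdown contrast was -2.44 (log2) within the hypoxia table and -3.70 within the normoxia table (limma adjusted p = 3.46e-07 and 1.39e-07). The knockdown was thus less deep in the hypoxia libraries: the shift was 0.93 in knockdown cells and -0.33 in control cells, a difference of 1.26 ± 0.16 (standard error, adjusted p = 0.00032). PPA1 was lower in both hypoxic groups, with shifts of -0.71 in knockdown cells and -0.29 in control cells that differed by -0.42 ± 0.10 (adjusted p = 0.00805).

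In hypoxic knockdown cells 1300 of the 13585 tested genes were called higher (9.57%) and 1465 lower (10.8%). Without the 2-fold minimum, the hypoxia libraries lay on one side of the normoxia libraries for 86.8% of the tested genes, so that criterion alone separates little. In control cells 1333 were called higher (9.81%) and 1342 lower (9.88%). The knockdown and control shifts share both tables, so what is common to them may be oxygen or table: 894 genes were called higher in both kinds of cell (68.8% of the knockdown and 67.1% of the control calls) and 954 lower in both (65.1% and 71.1%). The difference between the shifts passed the test for 2951 genes with a larger (more positive) shift in knockdown cells (21.7%) and 2612 with a smaller one (19.2%). Without centring, the median of all genes moved by -0.37 in knockdown cells and by -0.26 in control cells, and the split was 1815 larger and 3945 smaller; shifts here are relative to the median gene. Of the 2951 genes with a larger shift, 2361 were above control cells within the hypoxia table and 841 below control cells within the normoxia table, both at an adjusted p under 0.05. Of the 2612 with a smaller shift, 2304 were below control cells within the hypoxia table and 416 below them within the normoxia table.

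Many of the very largest shifts were shared by both kinds of cell. MIF, a cytokine, had 651 and 646 FPKM in knockdown hypoxia, against 0.201 and 0.234 RPKM in knockdown normoxia. Control cells had 635 and 543 FPKM of MIF in hypoxia, against 0.128 and 0.101 RPKM in normoxia. In all, 67 genes were under 1 in all 4 normoxia libraries and over 10 in all 4 hypoxia libraries, and 67 were the reverse. Shifts of at least 8-fold made up 1.17% of genes with no exon overlap on the same strand, 9.74% of genes with 10 to 50% of their exons overlapped, and 28.1% of genes with more. The median shift of 343 processed pseudogenes was -1.41, against -0.02 for 11382 protein-coding genes. The part of overlap in single results was not tested; among 9410 protein-coding genes with no such overlap, a set chosen after these values were seen, 534 were called higher (5.67%) and 655 lower (6.96%). Several genes that are near 0 in a whole table are pointed out below, since for them the interaction rests on the other table alone.

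**Figure D1:**
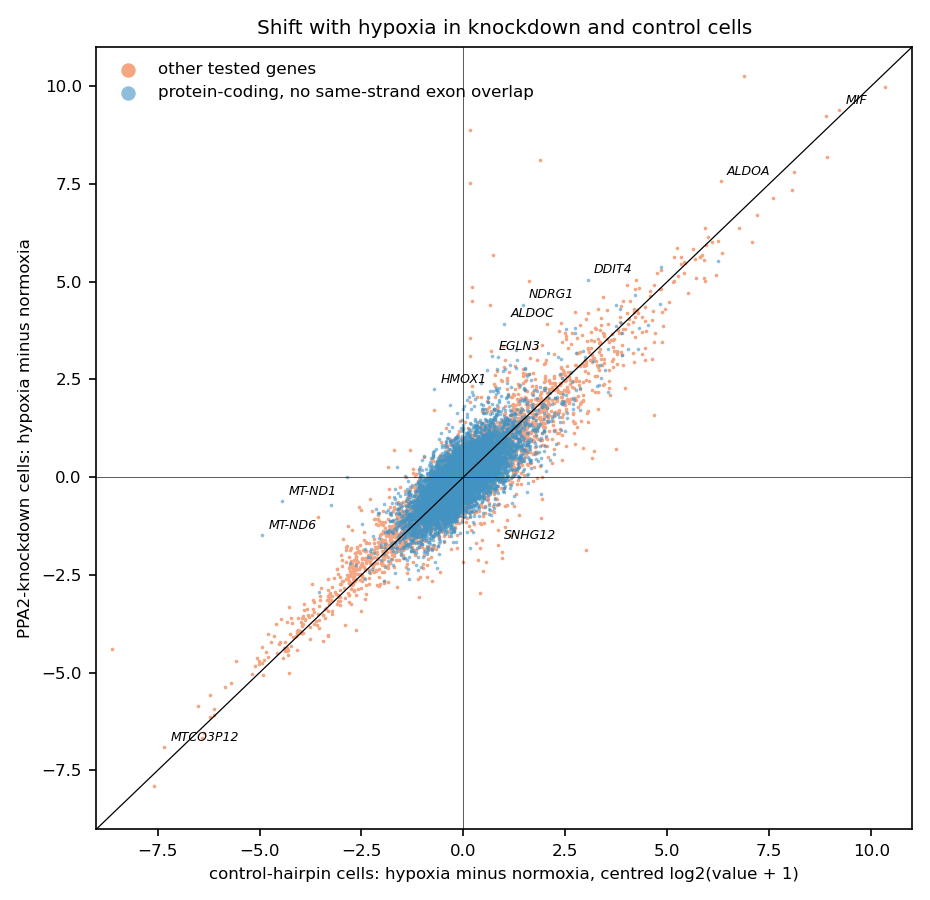
Shift with hypoxia (log2 scale, centred) of each of the 13585 tested genes in knockdown cells (vertical axis) and control cells (horizontal axis), with protein-coding genes without same-strand exon overlap in blue and all others in orange. MIF lies near the diagonal far from 0, whereas ALDOA, NDRG1, ALDOC, EGLN3 and HMOX1 lie above it, with the larger shift in knockdown cells.

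HIF targets outside glycolysis were higher in hypoxic knockdown cells as a group. Of 44 genes listed, 37 were tested; 24 were called higher and 1 lower, with a median shift of 2.04, against -0.05 over all tested genes. The same list in control cells had 15 called higher and 0 lower, with a median of 0.79. For 27 of the 37 the shift was larger in knockdown cells and for 3 smaller. Both sides of the comparison took part: of these 27, 17 were above control cells in hypoxia and 17 were below control cells in normoxia. Of all 2951 genes with a larger shift, 2361 were above control cells in hypoxia and 841 below them in normoxia. The share of the list was thus under that of all these genes in hypoxia and over it in normoxia. Among the 32 members without same-strand overlap 23 were called higher and none lower. The 7 untested members, BNIP3, CA12, LOX, LOXL2, PLIN2, PPP1R3C and STC2, were at 1.67 or less in every library. As the libraries are bulk, fewer cells with a transcript and less of it per cell cannot be told apart here or below.

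DDIT4, an inhibitor of mTORC1 signalling, had the largest shift of the list. It had 389 and 380.4 FPKM in knockdown hypoxia, against 13.6 and 13.6 RPKM in knockdown normoxia. In control cells it had 1101 and 1009 FPKM in hypoxia, against 154 and 132 RPKM in normoxia. Knockdown cells thus stayed below control cells at both oxygen levels, and their larger shift, 5.05 against 3.04, came with a far lower normoxic level (difference 2.0 ± 0.12, limma adjusted p = 6.77e-06). NDRG1, a stress-induced growth regulator, had 304 and 298 FPKM in knockdown hypoxia, against 15.6 and 17.9 RPKM in knockdown normoxia. Control cells had 197 and 225 FPKM of NDRG1 in hypoxia, against 94.0 and 78.7 RPKM in normoxia. Here the knockdown libraries were above the control libraries in hypoxia and below them in normoxia, and the shifts of 4.41 and 1.45 differed by 2.96 ± 0.13 (adjusted p = 1.36e-06).

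ANGPTL4, a secreted inhibitor of lipoprotein lipase, reached a like level in both kinds of hypoxic cell. It had 58.5 and 58.8 FPKM in knockdown hypoxia, against 4.49 and 4.33 RPKM in knockdown normoxia. Control cells had 57.5 and 56.7 FPKM in hypoxia, against 11.5 and 9.37 RPKM in normoxia. The shifts were 3.79 and 2.52, a difference of 1.26 ± 0.12 (adjusted p = 7.66e-05). The knockdown contrast was 0.10 (log2) within the hypoxia table (adjusted p = 0.357) and -1.17 within the normoxia table (adjusted p = 2.49e-05). ANKRD37, an ankyrin-repeat protein, was different: 30.2 and 26.3 FPKM in knockdown hypoxia, against 3.43 and 2.16 RPKM in knockdown normoxia, and 152 and 162 FPKM in control hypoxia, against 15.4 and 13.2 RPKM in control normoxia. Knockdown cells were lower at both oxygen levels, and the shifts, 3.29 and 3.54, differed by -0.25 ± 0.20 (adjusted p = 0.338). ADM, the vasodilator peptide adrenomedullin, showed that pattern too, with shifts of 2.62 and 2.38 (adjusted p of the difference 0.136), and so did the circadian repressor BHLHE40 with 3.03 and 2.40, where the difference of 0.63 passed the test (adjusted p = 0.00095).

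The collagen-modifying enzymes PLOD2 and P4HA1 stood higher in hypoxic knockdown cells than in any other group. PLOD2, a lysyl hydroxylase of collagen, had 327 FPKM in both knockdown hypoxia libraries, against 54.3 and 63.4 RPKM in knockdown normoxia. Control cells had 119.6 and 129.5 FPKM in hypoxia, against 59.1 and 54.7 RPKM in normoxia, so the groups were alike in normoxia and apart in hypoxia. The shifts of 2.78 and 1.29 differed by 1.49 ± 0.11 (adjusted p = 2.42e-05). P4HA1, a prolyl hydroxylase of collagen, had shifts of 2.87 and 1.13, a difference of 1.74 (adjusted p = 1.17e-05), and ITGA5, the integrin alpha chain that binds fibronectin, had 2.40 and 1.06, a difference of 1.34 (adjusted p = 3.91e-05). Of the 16 tested genes of collagen and matrix 4 were called higher and 0 lower (3 and 0 in control cells), against 9.57% and 10.8% of all tested genes. Of those called higher, P4HA1, PLOD2 and P4HA2 are also on the list of HIF targets, so the lists are not separate. The matrix genes FN1 (fibronectin) and COL4A1 (a basement membrane collagen), named because they went against the list, had shifts of -0.69 and -0.68 and were not called.

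Other members of the list ranged from 2.75 for PPFIA4 and 2.59 for VLDLR, a lipoprotein receptor, down to -1.08 for HIGD1A, a mitochondrial protein. PPFIA4 was near 0 in the whole normoxia table (0.42 to 0.80 RPKM), and VLDLR was low there (0.755 to 1.23 RPKM). HIGD1A was the 1 member called lower, with 34.1% of its exons overlapped. CA9, VEGFA and JMJD6 were picked after their values were seen. CA9, a membrane carbonic anhydrase that serves as a hypoxia marker, had 3.11 and 3.5 FPKM in knockdown hypoxia, against 0.115 and 0.268 RPKM in knockdown normoxia, whereas control cells stayed under 0.5 throughout (difference of shifts 1.98, adjusted p = 0.000143). VEGFA, the angiogenic growth factor, had 125 and 124 FPKM in knockdown hypoxia, against 40.3 and 43.7 RPKM in knockdown normoxia, and 134 and 144 FPKM in control hypoxia, against 125 and 108 RPKM in control normoxia. Hypoxic levels of VEGFA were close and the knockdown normoxia libraries were the low ones (difference of shifts 1.43, adjusted p = 2.61e-05). BNIP3L, a mitophagy receptor, had 211 and 208 FPKM in knockdown hypoxia, against 95.1 and 109 RPKM in knockdown normoxia, and in control cells it had 70.7 and 73.3 FPKM in hypoxia, against 109 and 102 RPKM in normoxia (difference 1.73, adjusted p = 8.3e-06). JMJD6, a nuclear hydroxylase, went the other way: its shift was 0.37 in knockdown cells and 1.67 in control cells, a difference of -1.30 (adjusted p = 2.85e-05).

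**Figure D2:**
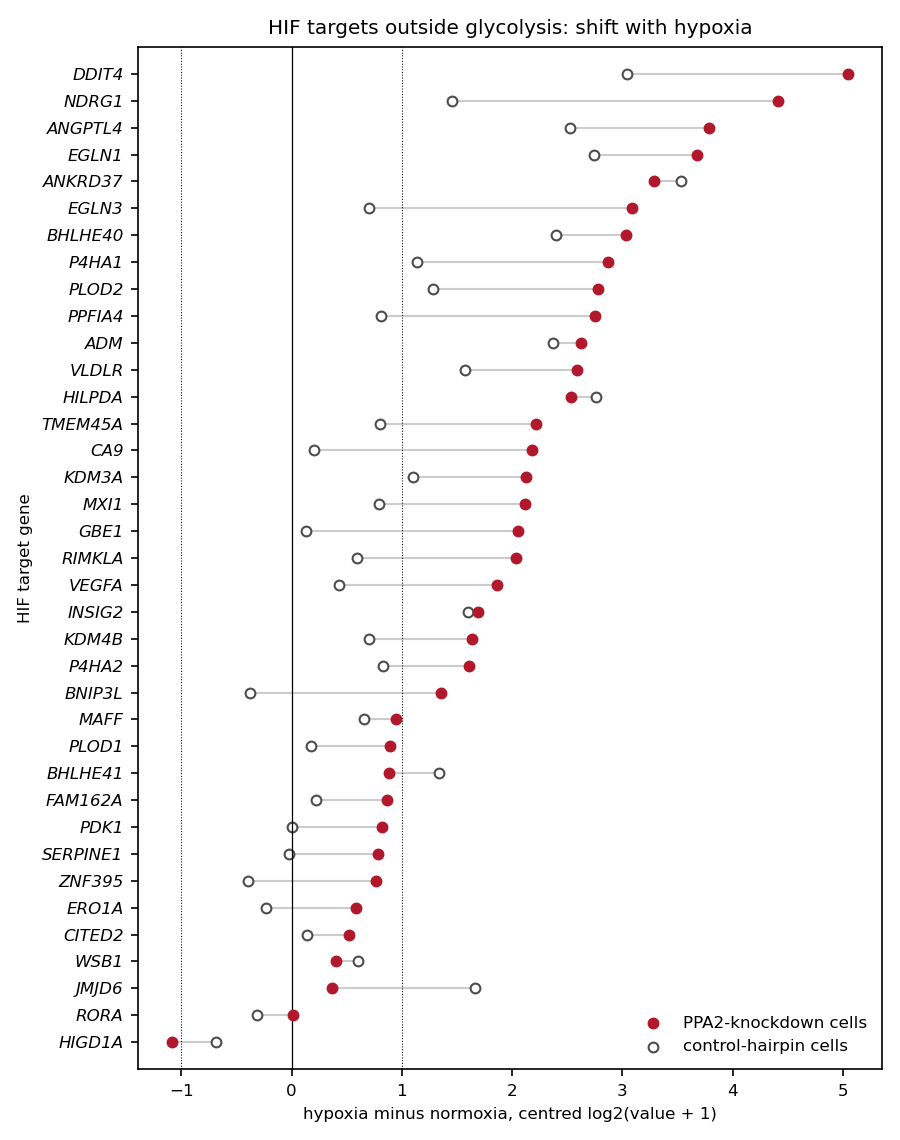
Shift with hypoxia (log2 scale, centred) of the 37 tested HIF targets outside glycolysis, with knockdown cells as filled and control cells as open circles and dotted lines at 2-fold. The knockdown value lies to the right of the control value for most members; ANKRD37, HILPDA, BHLHE41, WSB1, JMJD6 and HIGD1A are the exceptions.

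The machinery of oxygen sensing split into feedback hydroxylases that were much higher and core subunits that were not. EGLN1, the main HIF prolyl hydroxylase, had 55.7 and 56.8 FPKM in knockdown hypoxia, against 4.97 and 4.22 RPKM in knockdown normoxia. Control cells had 41.3 and 43.0 FPKM of EGLN1 in hypoxia, against 6.68 and 5.83 RPKM in normoxia (shifts 3.68 and 2.75, difference 0.94, adjusted p = 0.000307). EGLN3 had 121 and 125 FPKM in knockdown hypoxia, against 16.8 and 17.6 RPKM in knockdown normoxia, and 57.5 and 57.6 FPKM in control hypoxia, against 42.0 and 37.3 RPKM in control normoxia. Knockdown libraries of EGLN3 were thus the highest in hypoxia and the lowest in normoxia, and the shifts of 3.09 and 0.70 differed by 2.39 ± 0.10 (adjusted p = 1.1e-06). EGLN2 was under 0.6 in the whole normoxia table, and its call of higher (shift 4.29 and 3.29) is of the kind described for MIF.

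HIF1A, the transcript of the HIF-1 alpha subunit, was lower: 24.3 and 24.3 FPKM in knockdown hypoxia, against 62.7 and 66.1 RPKM in knockdown normoxia. Control cells had 31.5 and 32.5 FPKM in hypoxia, against 47.7 and 48.8 RPKM in normoxia. The shifts were -1.05 and -0.41, a difference of -0.64 ± 0.08 (adjusted p = 0.000309), and knockdown cells were the lowest group in hypoxia and the highest in normoxia. EPAS1, which encodes HIF-2 alpha, was 1.35 (log2) above control cells within the hypoxia table and 1.01 above within the normoxia table (adjusted p = 4.55e-06 and 0.000161), with a shift of 0.54 in knockdown cells. ARNT, VHL and the asparaginyl hydroxylase HIF1AN had shifts of 0.32, 0.77 and 0.34. ARNT2, ELOB, ELOC, CUL2 and RBX1, a further partner of the alpha subunits and the parts of the VHL ligase, had shifts between -0.86 and -0.20, and none of them was called. HIF3A was at 0.023 or less in every library.

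Genes of glucose entry and glycolysis were higher in hypoxic knockdown cells: 16 of 21 were called higher and 0 lower, with a median shift of 1.45, against 4 and 0 with a median of 0.35 in control cells. The shift was larger in knockdown cells for 19 of the 21 and smaller for 1. Of the 19, 14 were above control cells in hypoxia and 17 below control cells in normoxia, against 2361 and 841 of all 2951 genes with a larger shift. Among the 14 members without same-strand overlap 9 were called higher and 0 lower, with a median of 1.07. ALDOC, an aldolase isoform, had 29.9 and 31.4 FPKM in knockdown hypoxia, against 1.47 and 1.73 RPKM in knockdown normoxia. Control cells had 11.3 and 11.6 FPKM of ALDOC in hypoxia, against 6.65 and 5.46 RPKM in normoxia (shifts 3.93 and 1.0, difference 2.93 ± 0.13, limma adjusted p = 1.45e-06). PFKFB4, which makes the activator of phosphofructokinase, had shifts of 3.04 and 1.63, and SLC16A3, the lactate exporter MCT4, had 2.32 and 0.77, with differences of 1.40 and 1.55 (adjusted p = 2.61e-05 and 2.16e-05). ALDOA had 1345 and 1303 FPKM in knockdown hypoxia, against 8.14 and 7.30 RPKM in knockdown normoxia, and control cells had 921 and 817 FPKM in hypoxia, against 12.7 and 10.1 RPKM in normoxia. The gap is present in both kinds of cell (shifts 7.57 and 6.31, 42.3% of its exons overlapped) and was larger in knockdown cells by 1.27 (adjusted p = 0.000217).

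The next 3 genes were picked after their values were seen. LDHA, the lactate dehydrogenase subunit of fermenting cells, had 2117 and 2251 FPKM in knockdown hypoxia, against 871 and 912 RPKM in knockdown normoxia. Control cells had 1329 and 1216 FPKM in hypoxia, against 1326 and 1362 RPKM in normoxia, so the 4 control libraries lay between the knockdown groups. The shifts of LDHA were 1.61 and 0.09, a difference of 1.52 ± 0.12 (adjusted p = 2.91e-05). PGK1, phosphoglycerate kinase, had 209.9 and 209.5 FPKM in knockdown hypoxia, against 68.0 and 69.1 RPKM in knockdown normoxia, while all 4 control libraries were between 221 and 229.7. For PGK1 the knockdown normoxia libraries were therefore the ones apart (difference of shifts 1.76, adjusted p = 1.25e-06). SLC2A3, the glucose transporter GLUT3, was the member with a smaller shift in knockdown cells (2.12, against 2.45 in control cells; adjusted p = 0.0428). The phosphofructokinase subunits PFKM and PFKL had shifts of -0.46 and -0.10 and were not called.

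**Figure D3:**
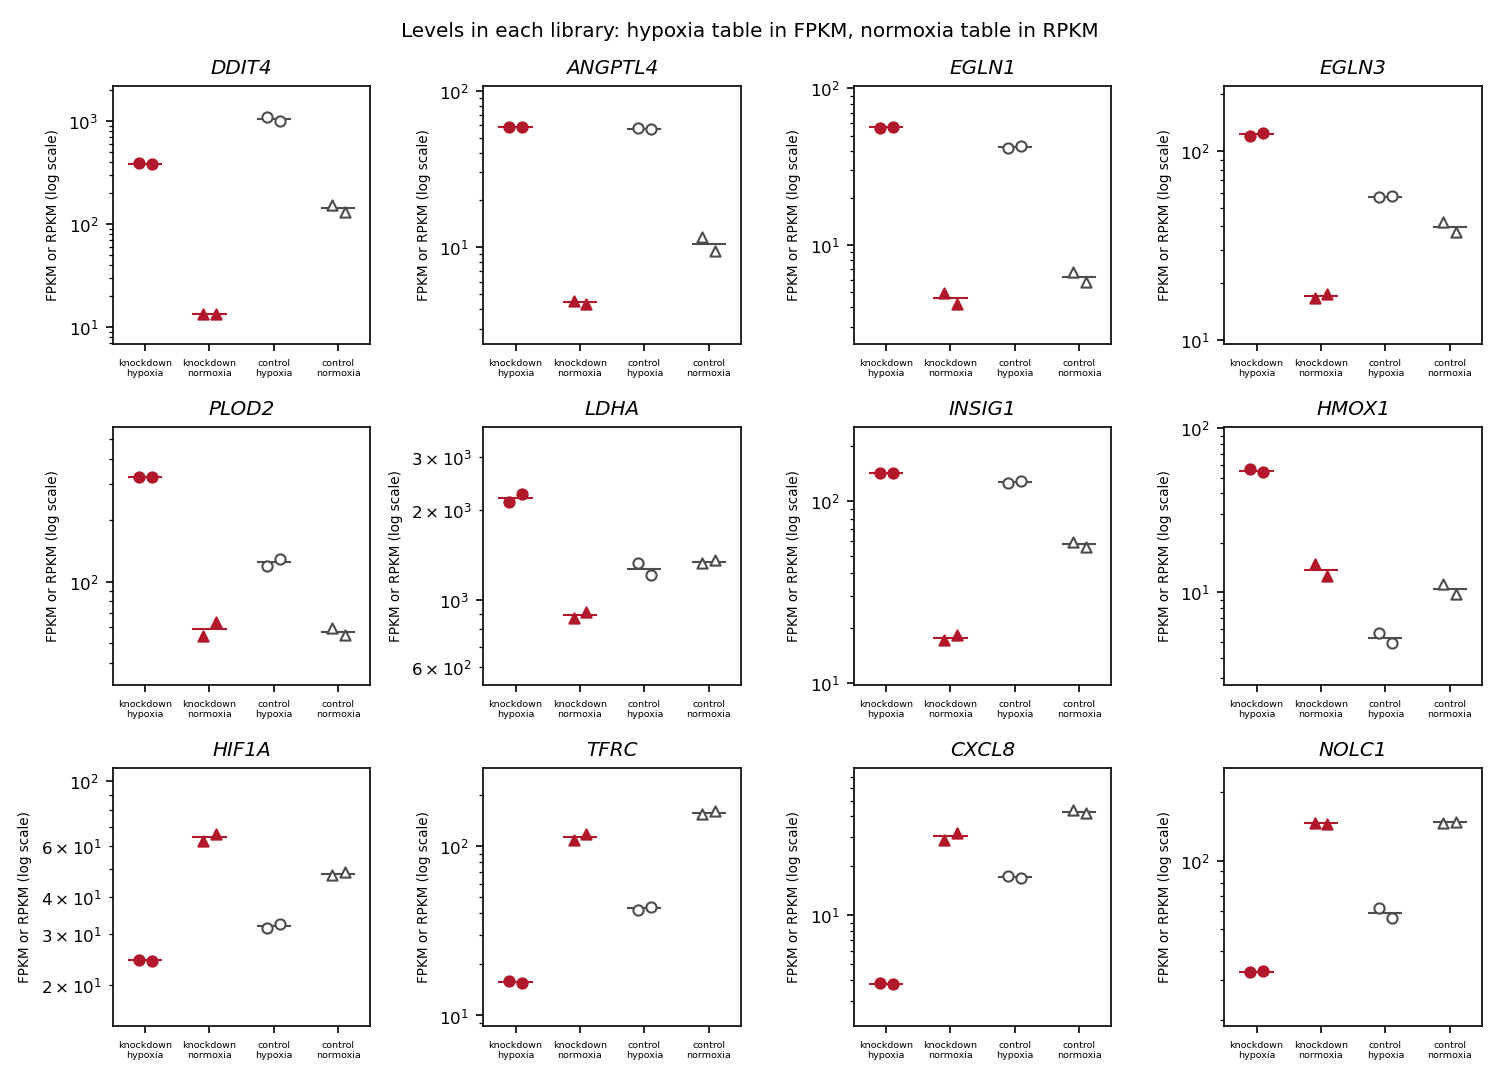
Level of 12 genes in each library on a log axis, in FPKM for hypoxia (circles) and RPKM for normoxia (triangles), with knockdown libraries filled, control libraries open and a line at each group's mean. DDIT4 in knockdown cells is below control cells at both oxygen levels, EGLN3 and LDHA of knockdown cells lie on both sides of the control cells, and HMOX1 is high in knockdown hypoxia alone among the 4 groups.

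Among 15 histone and DNA demethylases that consume oxygen 5 were called higher and 0 lower (2 and 0 in control cells), led by KDM3A, a histone H3 lysine 9 demethylase (shift 2.12 and 1.10, difference 1.03, adjusted p = 0.000318). Of all tested genes 9.57% were called higher and 10.8% lower. KDM4B, another demethylase called higher, is also on the list of HIF targets. Among 14 genes of glycogen metabolism 5 were called higher and 0 lower (1 and 0 in control cells). Of these, GBE1 is also on the list of HIF targets. GBE1, the glycogen branching enzyme, had 46.1 and 47.6 FPKM in knockdown hypoxia, against 12.9 and 14.0 RPKM in knockdown normoxia, and 22.1 and 24.3 FPKM in control hypoxia, against 24.4 and 23.3 RPKM in control normoxia. The shift of GBE1 was 2.05 in knockdown cells and 0.13 in control cells (difference 1.92 ± 0.09, adjusted p = 2.31e-06). Among mitophagy and mitochondrial dynamics genes 2 of 19 were called higher and 0 lower, near the share of all tested genes: BNIP3L and the kinase PINK1, which flags damaged mitochondria (shift 2.1 and 1.25, difference 0.85, adjusted p = 0.000226). Hypoxia-linked long noncoding RNAs had, as a list, a lower median shift in knockdown cells (0.47) than in control cells (0.80). Of 16, 4 were called higher and 4 lower in knockdown cells, against 7 and 2 in control cells. The shift was smaller in knockdown cells for 8 and larger for 4. All 8 were below control cells in hypoxia, as were 2304 of all 2612 genes with a smaller shift. Those with a smaller shift include GAS5 (shifts -0.66 and 0.63), PVT1 (-0.0047 and 1.19) and the host genes of small nucleolar RNAs described with the heat shock genes. Among the 4 with a larger shift, UCA1 and MIR210HG, the host transcript of the hypoxia-induced miR-210, had shifts of 4.03 and 3.56 in knockdown cells and of 3.0 and 2.78 in control cells.

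Cholesterol genes had the highest median of the lists outside HIF targets and glycolysis. Of 25 genes of cholesterol synthesis and uptake 15 were called higher and 0 lower in hypoxic knockdown cells (median shift 1.07), against 6 and 0 in control cells (median 0.41). The shift was larger in knockdown cells for 20 and smaller for 0. Of the 20, 13 were above control cells in hypoxia and 18 below control cells in normoxia, against 2361 and 841 of all 2951 genes with a larger shift. INSIG1, the sterol-sensing brake on SREBP processing, had 142 and 143 FPKM in knockdown hypoxia, against 17.3 and 18.3 RPKM in knockdown normoxia. Control cells had 126 and 129 FPKM of INSIG1 in hypoxia, against 59.8 and 55.7 RPKM in normoxia (shifts 3.26 and 1.30, difference 1.96 ± 0.08, adjusted p = 1.25e-06). HMGCS1, which makes the precursor of mevalonate, had shifts of 2.36 and 1.38 (difference 0.98, adjusted p = 0.000102), and the isomerase EBP had 2.24 and 1.74 (0.50, adjusted p = 0.0028). PMVK was the member below 0, at -0.23, and was not called.

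Of 20 fatty acid genes 5 were called higher and 1 lower (median shift 0.07), against 3 and 2 in control cells (median -0.26). Of all tested genes 9.57% were called higher and 10.8% lower. The shift was larger in knockdown cells for 8 of the fatty acid genes and smaller for 1. SCD, the stearoyl-CoA desaturase, an enzyme that itself uses oxygen, had 194 and 196 FPKM in knockdown hypoxia, against 65.1 and 70.0 RPKM in knockdown normoxia. Control cells had 103 and 113 FPKM of SCD in hypoxia, against 161 and 147 RPKM in normoxia. Its shifts had opposite signs, 1.84 in knockdown cells and -0.33 in control cells, with a difference of 2.17 ± 0.10 (adjusted p = 1.25e-06). FADS1, a desaturase of polyunsaturated fatty acids, was the member called lower (-1.01 and -0.74). HILPDA, a lipid droplet protein that is also on the list of HIF targets, had shifts of 2.54 and 2.76.

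Among haem and iron genes, 2 of 9 tested members of the iron handling list were called higher and 1 lower (1 and 1 in control cells). Of all tested genes 9.57% were called higher and 10.8% lower. The largest contrast with control cells was in HMOX1. HMOX1, haem oxygenase, had 56.2 and 54.1 FPKM in knockdown hypoxia, against 14.9 and 12.6 RPKM in knockdown normoxia. Control cells had 5.63 and 4.91 FPKM in hypoxia, against 11.3 and 9.82 RPKM in normoxia. HMOX1 was therefore high in hypoxic knockdown libraries and low in hypoxic control libraries (shifts 2.25 and -0.71, difference 2.96 ± 0.14, adjusted p = 2.31e-06). TFRC, the transferrin receptor, had 16 and 15.5 FPKM in knockdown hypoxia, against 108 and 118 RPKM in knockdown normoxia, and 41.8 and 43.7 FPKM in control hypoxia, against 154 and 160.2 RPKM in control normoxia. The shifts of TFRC were -2.44 and -1.68, a difference of -0.76 ± 0.09 (adjusted p = 0.000202). FTH1, the ferritin heavy chain, had 2964 and 2930 FPKM in knockdown hypoxia, against 856 and 754 RPKM in knockdown normoxia (shifts 2.20 and 1.81, difference 0.38, adjusted p = 0.0481). That difference was -0.088 under quantile normalization and missed the threshold when any 1 library other than control hypoxia replicate 1 was left out, with values of 0.29 to 0.47.

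Of 26 tested NRF2 targets and peroxide-defence genes 3 were called higher and 1 lower, near the shares of all tested genes (9.57% and 10.8%), against 2 and 2 in control cells. HMOX1 and FTH1, already described with the iron genes, are among those called higher. The shift was larger in knockdown cells for 10 and smaller for 3. Of the 10, 8 were above control cells in hypoxia, near the share of all genes with a larger shift (2361 of 2951). SRXN1 was the third called higher, with 85% of its exons overlapped, and NQO1, a quinone reductase, was the member called lower, with shifts of -1.31 and -1.49 (adjusted p of the difference 0.166). All 6 tested metallothionein-linked genes had a larger shift in knockdown cells, although 1 of them, MT1X, was called higher (3.29 and 1.77). TXNIP, the arrestin-like inhibitor of thioredoxin, had 40.6 and 41.0 FPKM in knockdown hypoxia, against 41.6 and 43.3 RPKM in knockdown normoxia. Control cells had 1.65 and 1.70 FPKM of TXNIP in hypoxia, against 8.04 and 8.62 RPKM in normoxia, so the knockdown libraries were high at both oxygen levels (shifts 0.27 and -1.63, difference 1.90, adjusted p = 2.31e-06).

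Stress programmes other than hypoxia differed from one another. Of 21 genes of the integrated stress response 5 were called higher and 0 lower (median shift 0.52), against 7 and 1 in control cells (median -0.012). The shift was larger in knockdown cells for 11 and smaller for 4. Of the 11, 4 were above control cells in hypoxia, 5 were below them there, and 9 were below control cells in normoxia. Of all 2951 genes with a larger shift, 2361 were above control cells in hypoxia and 841 below them in normoxia. Those called higher include DDIT4 and VLDLR, which are also on the list of HIF targets, so the lists are not separate. GDF15, a secreted stress cytokine, had 302 and 301 FPKM in knockdown hypoxia, against 85.6 and 71.9 RPKM in knockdown normoxia, and 728 and 645 FPKM in control hypoxia, against 305 and 249 RPKM in control normoxia. GDF15 was lower in knockdown cells at both oxygen levels, with shifts of 2.25 and 1.48 (difference 0.77, adjusted p = 0.00452). ASNS, asparagine synthetase, was near 0 in the whole normoxia table (shift 5.09 and 5.89, 44.6% of its exons overlapped). None of 21 endoplasmic reticulum chaperone and unfolded protein response genes was called in either direction in knockdown cells (median shift -0.11), against 0 higher and 2 lower in control cells (median -0.45). The shift was larger in knockdown cells for 12 of the 21 and smaller for 1. Of the 12, 11 were above control cells in hypoxia, as were 2361 of all 2951 genes with a larger shift. HSPA5, the main chaperone of the compartment, had shifts of -0.12 and -0.74, and XBP1, a transcription factor of the unfolded protein response, had 0.46 and -0.41.

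Heat shock genes, most of them cytosolic, were lower relative to control cells: of 20, the shift was smaller in knockdown cells for 9 and larger for 1. In knockdown cells 1 was called higher and 3 lower, near the shares of all tested genes, against 3 and 1 in control cells. The 1 called higher, HSPE1, encodes a mitochondrial chaperonin. Its shift was also smaller in knockdown cells (1.33, against 2.19 in control cells). DNAJB1, a cochaperone of HSP70, had 57.4 and 57.8 FPKM in knockdown hypoxia, against 116 and 113 RPKM in knockdown normoxia. Control cells had 454 and 432 FPKM of DNAJB1 in hypoxia, against 222 and 216 RPKM in normoxia, the opposite order (shifts -0.65 and 1.2, difference -1.84 ± 0.09, adjusted p = 1.7e-06). HSPA6, an inducible HSP70, had 0.204 and 0.345 FPKM in knockdown hypoxia, against 1.31 and 1.02 RPKM in knockdown normoxia, and 17.0 and 16.9 FPKM in control hypoxia, against 4.41 and 4.33 RPKM in control normoxia (difference -2.35, adjusted p = 1.21e-05). HSPA1A and HSPA1B, which encode nearly the same HSP70 and can share reads, had differences of -1.96 and -1.82 (adjusted p = 2.38e-05 and 2.28e-05). The host genes of small nucleolar RNAs SNHG12 and SNHG15 moved likewise: SNHG12 had 8.74 and 8.58 FPKM in knockdown hypoxia, against 38.4 and 40.0 RPKM in knockdown normoxia, and 61.8 and 54.8 FPKM in control hypoxia, against 35.6 and 37.0 RPKM in control normoxia (difference -2.57 ± 0.11, adjusted p = 1.25e-06). For SNHG15 the difference was -1.98 (adjusted p = 1.21e-05).

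Ribosome biogenesis had the lowest median of the 34 lists. Of 30 genes of ribosome biogenesis and MYC targets 17 were called lower and 3 higher in hypoxic knockdown cells (median shift -1.12), against 9 and 3 in control cells (median -0.73). The shift was smaller in knockdown cells for 22 and larger for 2, and all 22 were below control cells in hypoxia, as were 2304 of all 2612 genes with a smaller shift. NOLC1, a nucleolar chaperone named after its values were seen, had 32.3 and 32.7 FPKM in knockdown hypoxia, against 147 and 146 RPKM in knockdown normoxia. Control cells had 62.2 and 55.8 FPKM of NOLC1 in hypoxia, against 147 and 148 RPKM in normoxia, so the 4 normoxia libraries were level and the hypoxic knockdown libraries lowest (shifts -1.81 and -1.14, difference -0.68 ± 0.10, adjusted p = 0.000712). RCL1 and NOP16, which act in ribosomal RNA processing and assembly, had shifts of -2.06 and -2.05 in knockdown cells and of -1.48 and -1.13 in control cells (differences -0.58 and -0.92, adjusted p = 0.00184 and 5.4e-05). The members called higher were NME1, PPAN and NOP2, with 19% to 60% of their exons overlapped, and NOP2 was near 0 in the whole normoxia table. MYC itself had shifts of -0.41 and -1.07 (difference 0.66, adjusted p = 0.000732). Of 57 cytosolic ribosomal protein genes 4 were called higher and 2 lower, with a median of 0.09, against 9.57% and 10.8% called among all tested genes.

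Cell cycle genes were lower too. Of 30 genes of G2 and mitosis 12 were called lower and 1 higher (median -0.90), against 5 and 1 in control cells (median -0.61). The 1 called higher, NUSAP1, was near 0 in the whole normoxia table. The shift was smaller in knockdown cells for 16 and larger for none, and all 16 were below control cells in hypoxia, where most genes with a smaller shift lay. CENPF, a kinetochore protein, had 17.9 and 17.0 FPKM in knockdown hypoxia, against 83.4 and 87.5 RPKM in knockdown normoxia, and shifts of -1.90 and -1.54 whose difference missed the threshold (adjusted p = 0.0647). CCNB1, mitotic cyclin B1, named after its values were seen, had 26.3 and 27.5 FPKM in knockdown hypoxia, against 92.0 and 93.4 RPKM in knockdown normoxia, with a difference of shifts of -0.72 (adjusted p = 0.000143). Of 40 genes of DNA replication and S-phase entry 7 were called lower and 2 higher, with a median of -0.75, against 4 and 2 with -0.48 in control cells.

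NF-kB targets and cytokines had 7 of 22 members called lower and 0 higher (median -0.75), against 3 and 0 in control cells (median -0.49), and a smaller shift in knockdown cells for 13 and a larger one for 1. The neutrophil chemokines led. CXCL8 had 3.84 and 3.78 FPKM in knockdown hypoxia, against 28.6 and 31.9 RPKM in knockdown normoxia. Control cells had 17.2 and 16.9 FPKM of CXCL8 in hypoxia, against 43.7 and 42.0 RPKM in normoxia (shifts -2.38 and -1.11, difference -1.27 ± 0.10, adjusted p = 3.26e-05). CXCL1, CXCL2 and the chemokine CCL20 had shifts of -2.62, -2.33 and -2.17 in knockdown cells and of -1.34, -0.64 and -0.69 in control cells, with differences of -1.27, -1.69 and -1.48 (adjusted p = 0.000374, 0.0008 and 0.000237). BCL3, a nuclear regulator of NF-kB, had a shift of 0.97 and was not called.

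Mitochondrial genes of the nucleus were scattered. Complex I had 8 of 37 members called higher and 1 lower, complexes II to V had 10 and 4 of 41, and the mitochondrial ribosome had 4 and 7 of 42. In control cells the counts were 10 and 1, 10 and 2, and 4 and 4. Among members without same-strand overlap, the knockdown counts were 1 and 0 of 24, 4 and 3 of 31, and 1 and 6 of 34. Several of the genes called higher were low in the whole normoxia table, among them NDUFV2 and SDHA, at 3.60 RPKM or less in each normoxia library and at 52.1 FPKM or more in each hypoxia library. The shift was smaller in knockdown cells for 14, 19 and 19 members of these lists and larger for 1, 3 and 3. CYCS, cytochrome c, had 24.4 and 26.1 FPKM in knockdown hypoxia, against 144 and 166 RPKM in knockdown normoxia, and 45.5 and 41.0 FPKM in control hypoxia, against 162 and 163 RPKM in control normoxia (shifts -2.25 and -1.72, difference -0.53, adjusted p = 0.00665). NDUFS1, a core subunit of complex I, had shifts of -1.39 and -1.51, which did not pass the test of their difference (adjusted p = 0.387).

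Transcripts of the mitochondrial genome differed between knockdown and control cells mainly in hypoxia. Of 13 mRNAs 6 had a larger shift in knockdown cells, all above control cells in hypoxia, and 4 a smaller one, all below control cells in hypoxia. Most of all tested genes with such a difference were placed likewise (2361 of 2951 and 2304 of 2612). None of these mRNAs differed from control cells within the normoxia table at an adjusted p under 0.05. MT-ND1, a complex I subunit, had 1443 and 1415 FPKM in knockdown hypoxia, against 2993 and 2467 RPKM in knockdown normoxia. Control cells had 87.1 and 76.8 FPKM of MT-ND1 in hypoxia, against 2229 and 1847 RPKM in normoxia, so the hypoxic control libraries were the ones apart (shifts -0.60 and -4.45, difference 3.84 ± 0.17, adjusted p = 1.25e-06). MT-ND6, MT-ND5 and MT-CO1 had differences of 3.45, 2.56 and 2.88 (adjusted p = 3.51e-06, 4.02e-06 and 2.94e-06), whereas MT-ND2 had -1.17 (adjusted p = 0.000379). MT-ND2 had 1358 and 1317 FPKM in knockdown hypoxia, against 3558 and 3157 RPKM in knockdown normoxia, and 3072 and 2618 FPKM in control hypoxia, against 2959 and 2744 RPKM in control normoxia, so for it the hypoxic knockdown libraries were the ones apart. Of the 13 mRNAs 1 was called higher (MT-ATP8, which overlaps MT-ATP6) and 2 lower. The mitochondrial tRNA gene MT-TY had 354 and 391 FPKM in knockdown hypoxia and is listed at 0 in the other groups, and MT-TC had 139 and 150 FPKM there and is likewise listed at 0 elsewhere. MT-TP was instead high in normoxia, with 580 and 673 RPKM in knockdown cells and 598 and 585 RPKM in control cells. In hypoxia it had 22.2 and 23.2 FPKM in knockdown cells, against 0.127 and 0.602 FPKM in control cells. Poly(A) libraries measure such small RNAs badly.

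Epithelial and intestinal genes gave a last pair of groups. Of 26 keratins and junction genes 6 were called higher and 0 lower, against 2 and 1 in control cells, and 19 had a larger shift in knockdown cells and none a smaller one. KRT19, a simple-epithelium keratin, had 930.5 and 927 FPKM in knockdown hypoxia, against 370.3 and 345 RPKM in knockdown normoxia, and 908 and 832 FPKM in control hypoxia, against 576 and 520.2 RPKM in control normoxia (shifts 1.70 and 0.84, difference 0.86, adjusted p = 0.00046). CLDN4, a tight junction claudin, had shifts of 1.46 and 0.56 (difference 0.90, adjusted p = 0.000296). Among 18 WNT targets and intestinal stem genes 2 were called higher and 1 lower, against 9.57% and 10.8% of all tested genes. LGR5, the stem cell receptor for R-spondins, was the 1 called lower. LGR5 had 3.78 and 3.61 FPKM in knockdown hypoxia, against 17.1 and 18.0 RPKM in knockdown normoxia, and 13.4 and 14.1 FPKM in control hypoxia, against 17.8 and 18.0 RPKM in control normoxia. The hypoxic knockdown libraries were alone in being low (shifts -1.66 and -0.19, difference -1.48 ± 0.09, adjusted p = 1.19e-05). Among protein-coding genes without same-strand overlap OLR1, a scavenger receptor for oxidised LDL, had the lowest shift after CFAP126 (-2.94), with 38.5 and 39.8 FPKM in knockdown hypoxia, against 305 and 320.3 RPKM in knockdown normoxia (shifts -2.65 and -1.95, difference -0.69, adjusted p = 0.000275).

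**Figure D4:**
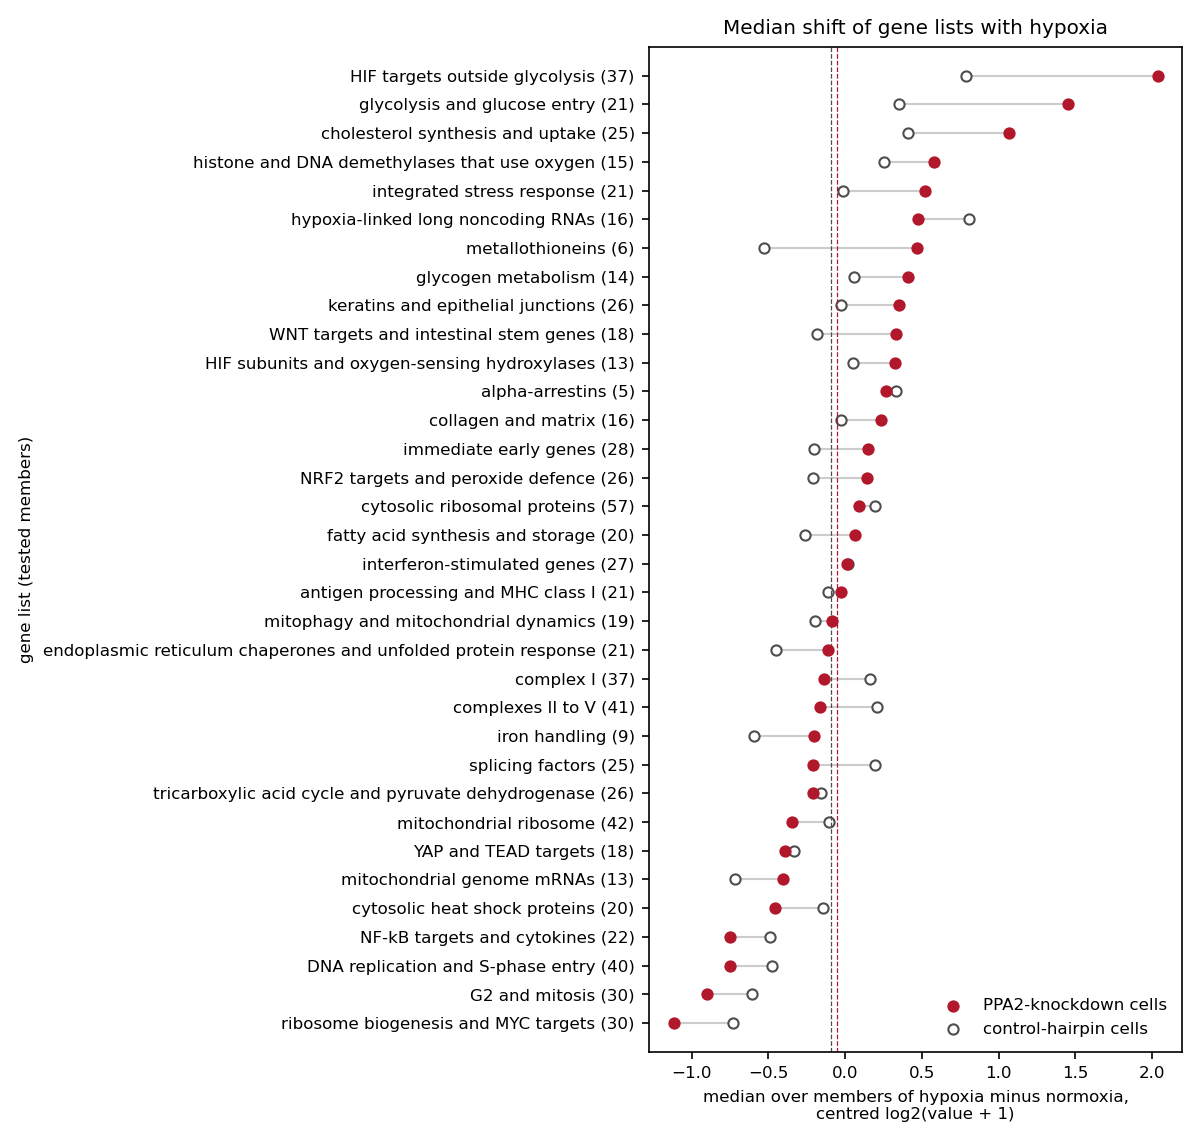
Median shift with hypoxia (log2 scale, centred) of the tested members of each of 34 gene lists, with their number in brackets, in knockdown cells (filled circles) and control cells (open circles); dashed lines mark the median of all tested genes. HIF targets, glycolysis and cholesterol genes stand at the top with medians of 2.04, 1.45 and 1.07 in knockdown cells, and ribosome biogenesis at the bottom with -1.12.

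The remaining lists lay nearer to the median gene. Interferon-stimulated genes had 3 of 27 called higher and 1 lower, antigen processing and MHC class I genes 2 and 1 of 21, YAP and TEAD targets 2 and 3 of 18, immediate early genes 4 and 3 of 28, splicing factors 1 and 2 of 25, genes of the tricarboxylic acid cycle and pyruvate dehydrogenase 1 and 2 of 26, and the alpha-arrestins 1 and 0 of 5. Their median shifts in knockdown cells ran from -0.39 for the YAP and TEAD targets to 0.27 for the alpha-arrestins. These shares are close to the 9.57% and 10.8% of all tested genes or rest on a few members. Of all 1300 genes called higher in knockdown cells, 492 had a larger shift than in control cells and 202 a smaller one, and of the 1465 called lower, 460 had a smaller and 128 a larger one. No gene was called higher in knockdown and lower in control cells, and 5 were called lower in knockdown and higher in control cells.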

How the data were processed

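Poly(A) RNA was turned into strand-preserving libraries, per the labels' protocols. In the submitters' processing notes, cutadapt 1.18, Trimmomatic 0.35, FastQC and HISAT2 2.1.0 are named with GRCh38; no source used here names a counting tool or gene annotation. The authors deposited RPKM per gene for normoxia (60234 genes) and, in a separate table, FPKM per gene for hypoxia (60612 genes), so the tables were scaled apart. An annotated sheet of 19630 genes repeats values of the hypoxia table, and 4 columns of other samples were not used.

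The tables were joined on 57069 symbols used once in each. Values were taken as log2(value + 1), a scale that understates changes of low genes, and 13585 genes averaging at least 1 across all 8 libraries were kept. Read numbers were estimated from single-exon genes at 1 read. The members and gene lists were chosen with earlier results of these data known, and set counts are descriptions. Named genes were PPA2 and PPA1, the largest shifts and interactions of each sign, the HIF subunits and hydroxylases, and up to 4 members per list (12 for HIF targets) with up to 2 going against the list. MYC, NME1, MT-CO1, NDUFS1 and those marked so in the text were chosen after their values were seen. Not every gene that the rule gives is reported here. The interaction and the contrasts within a table came from limma 3.58.1 (lmFit and eBayes with a mean trend, R 4.3.3) with Benjamini-Hochberg adjustment at 0.05, tested on simulated data. Exon overlap was computed with bedtools 2.31.1 on GENCODE v29. Tables were handled in Python 3.11.15 with pandas 2.3.3 and numpy 2.4.6. Alternatives changed the pseudocount, filter, centring, threshold, replicates and gene set.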

Additional observations from a re-analysis of the deposited data

Results flagged for a closer look

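The response to hypoxia differed between knockdown and control cells by the limma interaction test for 2951 genes with a larger shift in knockdown cells and 2612 with a smaller one. All values below are the shift in knockdown cells minus that in control cells on the log2 scale, each at an adjusted p under 0.05. PPA2 had 1.26 and PPA1 -0.42.

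Among HIF targets and oxygen sensors, NDRG1 had 2.96, EGLN3 2.39, DDIT4 2.0, CA9 1.98, P4HA1 1.74, BNIP3L 1.73, PLOD2 1.49, VEGFA 1.43, ITGA5 1.34, ANGPTL4 1.26, KDM3A 1.03, EGLN1 0.94 and BHLHE40 0.63, whereas HIF1A had -0.64 and JMJD6 -1.30. In glucose and glycogen metabolism, ALDOC had 2.93, GBE1 1.92, PGK1 1.76, SLC16A3 1.55, LDHA 1.52, PFKFB4 1.40 and ALDOA 1.27, and SLC2A3 had -0.33. ALDOA was low in the whole normoxia table (7.30 to 12.7 RPKM), with 42.3% of its exons overlapped. In lipid metabolism, SCD had 2.17, INSIG1 1.96, HMGCS1 0.98 and EBP 0.50.

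Of stress and iron genes, HMOX1 had 2.96, TXNIP 1.90, PINK1 0.85, GDF15 0.77 and FTH1 0.38 (-0.088 under quantile normalization), and TFRC had -0.76, DNAJB1 -1.84, HSPA1B -1.82, HSPA1A -1.96, HSPA6 -2.35, SNHG15 -1.98 and SNHG12 -2.57. Of mitochondrial transcripts, MT-ND1 had 3.84, MT-ND6 3.45, MT-CO1 2.88 and MT-ND5 2.56, and MT-ND2 had -1.17 and CYCS -0.53. For MT-ND1, MT-ND6, MT-CO1 and MT-ND5 the hypoxic control libraries were the ones apart.

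Of growth and cell cycle genes, MYC had 0.66, RCL1 -0.58, NOLC1 -0.68, CCNB1 -0.72 and NOP16 -0.92. Of chemokines, CXCL8 had -1.27, CXCL1 -1.27, CCL20 -1.48 and CXCL2 -1.69. Of epithelial and stem cell genes, CLDN4 had 0.90, KRT19 0.86 and LGR5 -1.48, and the scavenger receptor OLR1 had -0.69.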

How the results depend on the processing

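The main counts in knockdown cells were 1300 higher and 1465 lower genes, and 2951 larger and 2612 smaller shifts than in control cells. Higher and lower genes numbered 650 and 682 with a pseudocount of 5, 846 and 823 with a mean of at least 5, 2502 and 3008 at 1.5-fold, 440 and 333 at 4-fold, and 2493 and 2757 by a rank shift of at least 10 points. Recentred on the protein-coding genes without same-strand overlap (added after the data were seen) they numbered 642 and 515. Without centring 2569 genes were lower, and 1815 shifts were larger and 3945 smaller. With no filter on low values 7332 shifts were larger; larger and smaller shifts numbered 1768 and 1612 at an adjusted p under 0.01, and 328 and 357 with at least 2-fold in addition (limma). Leaving out 1 library gave 1295 to 1337 higher, 1451 to 1478 lower, 2104 to 3050 larger and 1937 to 2825 smaller. The median shift of HIF targets, 2.04, was 2.15 with a pseudocount of 0.1, 1.36 with 5, 1.62 with no filter, 1.83 with a mean of at least 5, 1.95 with the filter on knockdown libraries, 1.72 without centring and 2.17 on genes without overlap, and 1.93 to 2.11 without 1 library. The replicate numbers did not pair the samples (correlation of deviations 0.0048 between the knockdown groups); with a replicate block the counts were 1300, 1465, 2999 and 2625. The interaction reversed for FTH1 with quantile normalization (-0.088), and the cause was not tested. Of 5026 interaction values of 233 named genes, 189 no longer passed the threshold, 96 newly passed it and 4740 did neither; of 3395 shift values none reversed. Oxygen level and table cannot be told apart in any shift, and 2 libraries a group limit the precision.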
